A study of Mus musculus with 2 samples.

Results

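Chromatin accessibility was described at 8 loci that mark homeostatic microglia: P2ry12, P2ry13, Gpr34, Cx3cr1, Tmem119, Siglech, Sall1 and Olfml3. They were taken as a fixed list of named genes, chosen with earlier results of these data known, and make up 8 of the 21774 protein-coding genes counted. A level is the number of fragments overlapping the gene body or the 2 kb upstream of its start site, per 1000000 fragments of the nuclei in question (CPM). Levels were compared between the sham and the stroke library and between classes of nuclei gated on other marker genes, among them the myeloid class, with 21 of 6817 kept sham nuclei and 240 of 5054 kept stroke nuclei. All 8 loci had at least 20 fragments over both libraries in all kept nuclei and in myeloid-gated nuclei, and in astrocyte-gated nuclei Gpr34 (6 sham and 5 stroke fragments) and Siglech (4 and 8) fell short of this minimum.

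Microglia are the resident macrophages of the brain parenchyma, and in the undisturbed brain they keep open a set of genes for sensing nucleotides, lipids, chemokines and neighbouring cells. P2ry12 and P2ry13 encode receptors for ADP, Gpr34 a receptor for lysophosphatidylserine and Cx3cr1 the receptor for fractalkine, a chemokine made by neurons. Tmem119 and Siglech encode surface proteins used to tell microglia from other macrophages, Sall1 a zinc finger transcription factor of microglial identity and Olfml3 a secreted glycoprotein. Products of this set are known to decline when microglia become activated after injury, and monocyte-derived macrophages that enter the brain carry little of most of them, whereas Cx3cr1 is also expressed by monocytes.

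Both libraries were scATAC-seq libraries from WT mouse brain taken at 48 h. The stroke library was made from the ipsilateral hemispheres of 4 brains after transient occlusion of the middle cerebral artery for 1 h with reperfusion (MCAO/R), and the sham library from 4 brains after filament insertion without sustained occlusion. All were C57BL/6J males of 8 to 12 weeks, and olfactory bulbs and cerebellum were excluded. The 4 brains of a condition were pooled before nuclei were extracted, so each condition was 1 library with no replicate. No difference between sham and stroke was therefore tested, condition, library and dissected region (whole brain in sham, hemisphere in stroke) cannot be told apart, and the intervals below are exact 95% intervals that cover counting error only.

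The libraries differed before any locus was counted. The sham library listed 76959104 fragments with 6979 called barcodes, of which 162 failed the minimum of 20% of fragments in peaks. The stroke library listed 96465679 fragments with 8740 called barcodes, of which 3686 failed it. Kept nuclei had a median of 10353 fragments in sham and 9898 in stroke, and 16.8% of fragments in sham and 15.3% in stroke lay within 1 kb of a start site. The libraries shared 42 kept barcodes, and none of these was myeloid-gated in both.

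To show what was open at these loci, the 300 bases with the most myeloid cut sites that held no UTR base were read for each of them from the GRCm38.p6 (mm10) reference. They are written 5′ to 3′ on the strand of the gene for 6 of the loci, and capitals mark GAGGAA or its complement, the core bound by PU.1, a transcription factor that all myeloid cells need. The windows were chosen by these cut sites, so their counts are a description. The P2ry12 window, chr3:59260841-59261140 on the minus strand, lay in an intron 1995 bases past the start site, with 18.0 myeloid cut sites per 1000000 fragments (13.9 to 22.9) against 1.13 in all other kept nuclei.
P2ry12: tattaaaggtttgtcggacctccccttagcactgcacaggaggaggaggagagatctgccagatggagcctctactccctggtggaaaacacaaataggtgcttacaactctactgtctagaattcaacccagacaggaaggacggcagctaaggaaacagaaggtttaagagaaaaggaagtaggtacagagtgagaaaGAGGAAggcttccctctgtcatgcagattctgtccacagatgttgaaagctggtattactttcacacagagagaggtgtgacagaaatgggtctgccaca
The P2ry13 window, chr3:59211752-59212051 on the minus strand, lay 1019 bases upstream of the start site, with 7.52 myeloid cut sites per 1000000 fragments against 0.343.
P2ry13: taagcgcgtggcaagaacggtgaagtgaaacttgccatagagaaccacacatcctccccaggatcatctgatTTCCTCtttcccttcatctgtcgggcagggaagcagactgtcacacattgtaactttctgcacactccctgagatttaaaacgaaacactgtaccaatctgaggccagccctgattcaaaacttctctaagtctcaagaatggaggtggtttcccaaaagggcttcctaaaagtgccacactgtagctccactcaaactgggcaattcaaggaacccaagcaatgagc
The Gpr34 window, chrX:13636279-13636578 on the plus strand, lay in an intron 3659 bases past the start site, with 8.33 cut sites per 1000000 against 0.180.
Gpr34: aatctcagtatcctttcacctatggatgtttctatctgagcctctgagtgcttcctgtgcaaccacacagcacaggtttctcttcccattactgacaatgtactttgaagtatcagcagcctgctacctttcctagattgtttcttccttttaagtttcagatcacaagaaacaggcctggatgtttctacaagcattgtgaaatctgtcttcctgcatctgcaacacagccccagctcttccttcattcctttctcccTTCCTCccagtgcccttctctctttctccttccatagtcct
The Cx3cr1 window, chr9:120055003-120055302 on the minus strand, lay in an intron 13144 bases past the start site, with 15.6 cut sites per 1000000 against 0.465.
Cx3cr1: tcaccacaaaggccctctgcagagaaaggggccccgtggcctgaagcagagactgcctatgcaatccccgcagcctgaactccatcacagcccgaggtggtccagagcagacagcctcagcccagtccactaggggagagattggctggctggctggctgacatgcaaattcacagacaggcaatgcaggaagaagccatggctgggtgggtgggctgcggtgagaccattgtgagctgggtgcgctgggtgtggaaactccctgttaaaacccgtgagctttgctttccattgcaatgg
The Siglech window, chr7:55767854-55768153 on the plus strand, lay upstream and ended short of the first exon, with 7.52 cut sites per 1000000 against 0.196.
Siglech: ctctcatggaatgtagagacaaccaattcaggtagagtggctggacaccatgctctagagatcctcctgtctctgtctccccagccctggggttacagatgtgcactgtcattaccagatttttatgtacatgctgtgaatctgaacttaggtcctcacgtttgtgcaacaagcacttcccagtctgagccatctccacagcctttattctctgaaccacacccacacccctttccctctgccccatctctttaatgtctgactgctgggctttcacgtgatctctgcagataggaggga
The Sall1 window, chr8:89043532-89043831 on the minus strand, lay in an intron 481 bases past the start site, with 20.7 cut sites per 1000000 against 4.16.
Sall1: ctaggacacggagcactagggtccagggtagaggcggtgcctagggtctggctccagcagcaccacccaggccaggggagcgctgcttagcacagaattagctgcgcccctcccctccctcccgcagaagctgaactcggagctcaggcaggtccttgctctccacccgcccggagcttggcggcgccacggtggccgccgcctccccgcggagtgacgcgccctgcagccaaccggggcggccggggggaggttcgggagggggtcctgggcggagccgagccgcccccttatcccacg

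The core GAGGAA, on either strand, was found in 3 of the 8 windows (P2ry12, P2ry13 and Gpr34), against 27.5% of 17492 RefSeq promoters of the same length. TGANTCA, the letters of an AP-1 site, was in the P2ry13 window and in 7.08% of promoters. The letters of a site for interferon regulatory factors, GAAA, any 2 bases and GAAA, were in the Tmem119 window and in 3.40% of promoters, and those of a MEF2 site, CTA, any 4 bases and TAG, were in none of the 8 windows and in 3.48% of promoters. These matches describe letters in the windows and were not tied to any factor.

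The myeloid gate rested on 6 genes outside the list (Inpp5d, Fli1, Ikzf1, Ptprc, Dock2 and Apbb1ip). They were read over 15 nuclei, each nucleus and its nearest neighbours, with the region around each of the 8 loci left out of the neighbour search. Neighbours were sought in both libraries together, so a sham nucleus could be scored in part on stroke nuclei, and how often was not counted. The gate genes are shared by microglia, monocytes, macrophages and lymphocytes, so the class is called myeloid and not microglia. The leading genes of the class over all other nuclei were Naip2, Cx3cr1, Adap2, Lyn, Pilra, C1qb, Fli1, Vsir, C5ar2 and Rhoh. Cx3cr1 is a member and C1qb encodes a complement chain made by microglia and other macrophages. The class made up 0.308% of sham nuclei (0.191% to 0.471%) and 4.75% of stroke nuclei (4.18% to 5.37%). A sham myeloid nucleus had a median of 4712 fragments and a stroke one 15489, and 20.6% of sham and 15.5% of stroke myeloid fragments lay near start sites. The gate score had a cut of 2. Counting nuclei that also passed another gate, 5 sham nuclei lay between 2 and 2.5 and 23 between 1.5 and 2, and 53 and 88 stroke nuclei did.

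All 8 loci were more accessible in myeloid-gated nuclei than in the other kept nuclei of the same library. All 8 were at 2 times or more in both libraries, against 3.78% of 19291 genes. Summed over the 8 loci, the level was 491 CPM (383 to 620) in the 21 sham nuclei against 59.0 in other sham nuclei, a ratio of 8.32 (6.47 to 10.5). In stroke it was 302 (284 to 321) against 73.8, a ratio of 4.10 (3.82 to 4.39). The median ratio of all genes was 0.772 in sham and 0.977 in stroke. The order of the 8 loci by the pooled ratio was Cx3cr1 (11.2, place 22 of 20408 genes), Siglech (10.0, place 37), Tmem119 (7.05, place 120), Gpr34 (6.44, place 153), P2ry13 (4.30, place 456), Sall1 (4.06, place 544), P2ry12 (3.37, place 886) and Olfml3 (2.41, place 1759). Most myeloid fragments in this pooled order came from stroke. In sham alone Gpr34 led with 20.99 (7.58 to 46.8), followed by Siglech at 17.3 (6.28 to 38.5) and Cx3cr1 at 15.3 (7.83 to 27.0), with intervals that overlapped. The sham ratio of Olfml3, 2.32, came from 3 fragments and its interval, 0.478 to 6.82, included 1. Over the wider window that GENCODE M21 gives Cx3cr1, its ratio was 1.21 in sham (0.830 to 1.71) and 1.53 in stroke (1.43 to 1.63), so that it was no longer at 2.

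For P2ry12, 18 fragments in sham myeloid nuclei gave 126 CPM (74.8 to 200), and 250 in stroke gave 69.8 (61.4 to 79.0). The other 7 gated classes ranged from 11.8 to 38.9 CPM in sham and from 3.83 to 27.8 in stroke. The highest of these was 5 fragments of the endothelial class in sham, whose interval reached that of the myeloid class. In stroke no other class reached it. P2ry13 gave 49.1 CPM in sham myeloid nuclei (19.7 to 101, 7 fragments) and 18.4 in stroke (14.3 to 23.5, 66 fragments), with other classes at or below 7.77 and 8.22. In each library the intervals of 2 other classes reached that of the myeloid class. Both genes lie inside Med12l, and fragments carry no strand, so part of their level in neurons and glia cannot be assigned to them.

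Gpr34 gave 42.1 CPM in sham myeloid nuclei (15.4 to 91.6, 6 fragments) and 11.5 in stroke (8.22 to 15.5, 41 fragments). In sham the endothelial class held 2 fragments (15.5 CPM) and the other classes from 0 to 2.30 CPM, and in stroke none exceeded 3.85. The intervals of 2 other classes reached that of the myeloid class in each library. The locus lies inside Cask. Cx3cr1 gave 84.2 CPM in sham myeloid nuclei (43.5 to 147, 12 fragments) and 67.3 in stroke (59.1 to 76.4, 241 fragments). Among other classes in stroke it was at 1.48 to 19.1, none of whose intervals reached that of the myeloid class. In sham the oligodendrocyte class stood at 44.9 (27.1 to 70.2), from 19 fragments in 11 of 90 nuclei, and at 9.40 in stroke (4.06 to 18.5).

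Tmem119 gave 42.1 CPM in sham myeloid nuclei (15.4 to 91.6, 6 fragments) and 25.4 in stroke (20.5 to 31.2, 91 fragments). Over the whole window it was as open in the mural and leptomeningeal class, with 41.1 in sham (16.5 to 84.8, 7 fragments) and 24.9 in stroke (13.2 to 42.5, 13 fragments), and the intervals of both classes overlapped in both libraries. From 2 kb upstream to 500 bases downstream of the start site, that class was higher in stroke. It held 21.1 CPM there (10.5 to 37.7, 11 fragments) against 6.98 in myeloid nuclei (4.52 to 10.3, 25 fragments). Siglech gave 42.1 in sham myeloid nuclei (15.4 to 91.6, 6 fragments) and 26.5 in stroke (21.5 to 32.4, 95 fragments). No other class exceeded 7.77 in sham or 5.87 in stroke, and the mural and leptomeningeal class held no Siglech fragment in sham, where 3 fragments would be 17.6 CPM. The intervals of 2 other classes reached that of the myeloid class in sham, and that of no other class did in stroke.

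Sall1 and Olfml3 were not highest in myeloid-gated nuclei. Sall1 gave 84.2 CPM in sham myeloid nuclei (43.5 to 147, 12 fragments) and 60.0 in stroke (52.3 to 68.6, 215 fragments). Astrocyte-gated nuclei held 83.2 in sham (73.4 to 94.0) and 71.1 in stroke (63.4 to 79.5), and the mural and leptomeningeal class 99.9 in sham (58.2 to 160) and 47.8 in stroke (31.0 to 70.6). Glutamatergic neurons were lowest in sham, at 3.75. Olfml3 gave 21.05 in sham myeloid nuclei (4.34 to 61.5, 3 fragments) and 23.2 in stroke (18.5 to 28.7, 83 fragments), against 36.4 (21.9 to 56.8) in the stroke mural and leptomeningeal class. Its window overlaps that of Hipk1. The myeloid interval overlapped that of most other classes for both genes. Both neuron classes lay below it for Sall1 in both libraries and for Olfml3 in stroke, and the endothelial class for Sall1 in stroke.

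**Figure D1:**
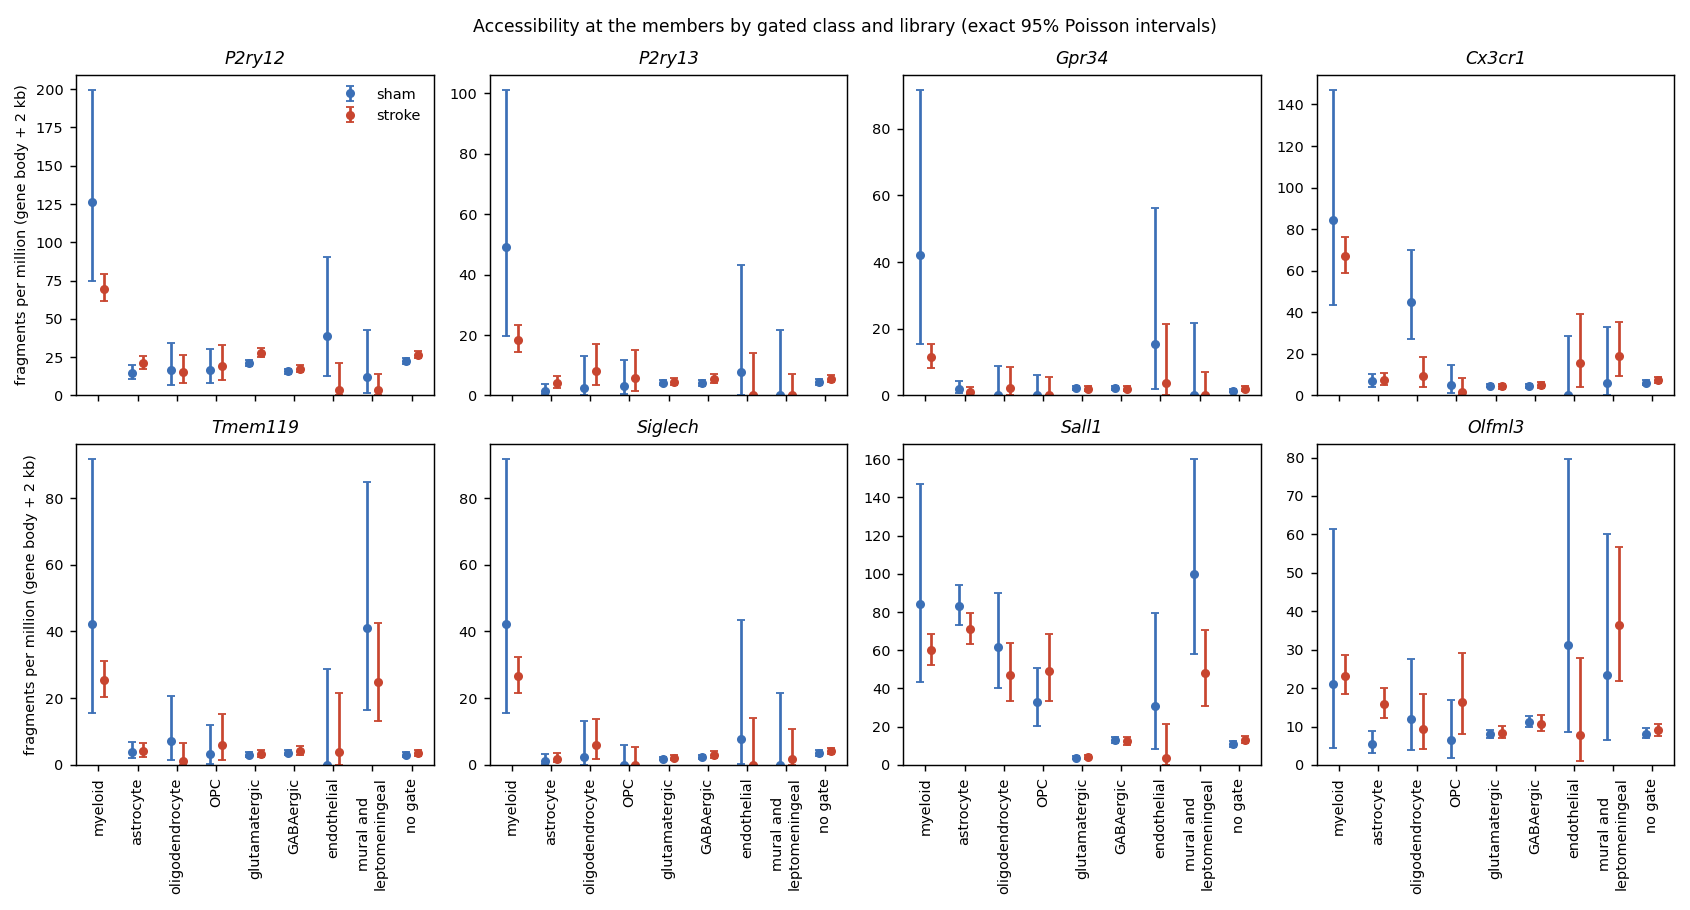
CPM over gene body plus 2 kb (vertical axis) at each of the 8 loci, by gated class (horizontal axis), sham in blue and stroke in red, points with exact 95% Poisson intervals. The myeloid class is highest in both libraries for 6 loci, and its interval lies above that of every other class for 3 loci in stroke and 0 in sham. The shares of all genes that meet these conditions were not counted, so the counts cannot be set against them. Sall1 is also high in astrocyte-gated nuclei (83.2 and 71.1) and Tmem119 in the mural and leptomeningeal class (41.1 and 24.9).

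Per kb of window, the loci of stroke myeloid nuclei ran from 1.13 CPM per kb for Gpr34 and 1.43 for P2ry12 to 3.69 for P2ry13 and 5.03 for Olfml3. Cx3cr1 (3.11), Sall1 (3.17) and Tmem119 (2.93) lay close together, and Siglech was at 2.08. The median gene in those nuclei was at 0.621, so each of the 8 levels per kb was above it. P2ry12 has the longest window, 48.7 kb, and P2ry13 and Olfml3 the shortest, 4.99 and 4.61 kb.

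Over all kept nuclei the loci were higher in stroke than in sham. The sum was 59.9 CPM in sham (58.1 to 61.7) and 89.3 in stroke (86.7 to 91.9), a ratio of 1.49 (1.43 to 1.55). All 8 ratios were above 1, where 44.8% of 20408 genes were, and 4 of 8 were at 1.5 or more, where 10.2% of genes were. The 4 were Cx3cr1 at 1.94 (1.71 to 2.21), Siglech at 1.88 (1.55 to 2.29), Sall1 at 1.61 (1.48 to 1.76) and Tmem119 at 1.59 (1.34 to 1.88). Cx3cr1 was at 1.05 (1.02 to 1.07) over its GENCODE M21 window, and with no filter on percent in peaks Sall1 was at 1.27, Tmem119 at 1.48 and Olfml3 at 0.928, below 1. P2ry13 stood at 1.42 (1.21 to 1.67), P2ry12 at 1.37 (1.28 to 1.48), Olfml3 at 1.24 (1.11 to 1.39) and Gpr34 at 1.22 (0.959 to 1.55), the last with an interval that includes 1. The median ratio of all genes was 0.976. In such sums a change in the mix of classes and a change in the level per nucleus cannot be told apart. Besides the myeloid class, astrocyte-gated nuclei made up 4.93% of sham and 9.83% of stroke nuclei. Glutamatergic neurons made up 32.3% and 21.6%.

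The share of the loci's fragments that came from myeloid-gated nuclei differed widely between libraries. In sham it was 1.59% of the summed fragments (1.24% to 2.01%), where these nuclei held 0.194% of all fragments. In stroke it was 23.0% (21.8% to 24.2%), where they held 6.78%. For Cx3cr1 it was 2.88% in sham and 41.6% in stroke, for Siglech 3.26% and 38.2%, and for Olfml3 0.450% and 13.97%. At each locus most fragments lay outside the gate in both libraries. With myeloid-gated nuclei left out, the summed ratio of stroke over sham was 1.2495 (1.20 to 1.31), none of the 8 loci was at 1.5 or more (8.33% of genes were), and 7 of 8 were above 1 (43.8% of genes were). Sall1 was the highest at 1.41 (1.29 to 1.55) and Gpr34 the lowest at 0.943 (0.719 to 1.23). Nuclei at the myeloid cut that also passed another gate (7 sham and 33 stroke) stayed among the nuclei counted here. Nuclei in several gates, these among them, held the loci at 134 CPM in sham (51 nuclei) and 167 in stroke (123 nuclei). The mix of the remaining classes differed between the libraries, and its part in these ratios was not tested.

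Astrocyte-gated nuclei held the loci at 119 CPM in sham and 127 in stroke, a ratio of 1.07 (0.934 to 1.22). Sall1 made up most of this level, and its ratio there was 0.855 (0.722 to 1.01). Olfml3 was higher in stroke astrocyte-gated nuclei, 15.8 CPM (12.3 to 20.04, 69 fragments) against 5.46 (3.18 to 8.75, 17 fragments), a ratio of 2.90 (1.69 to 5.26). P2ry13 stood at 2.57 (0.920 to 8.86), from 18 stroke and 5 sham fragments. These 2 loci were at 1.5 or more, as were 9.53% of 16493 genes, and Olfml3 alone of the 8 had an interval off 1.

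**Figure D2:**
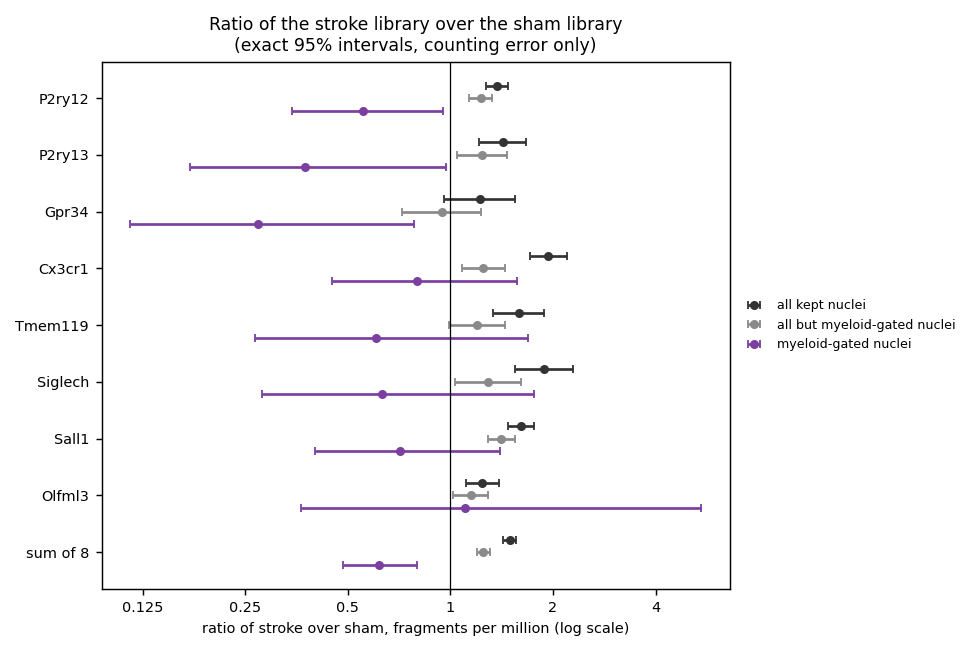
Ratio of the stroke over the sham library on a log axis, for each locus and their sum, in all kept nuclei (black), without myeloid-gated nuclei (grey) and in myeloid-gated nuclei (purple), with exact 95% intervals for counting error. The summed ratio is 1.49 in all kept nuclei, 1.2495 without the myeloid class and 0.615 within it, and the last turned to 1.61 with a gate on each nucleus alone, which is not drawn.

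Within the myeloid gate the direction was the other way, though it turned with another gate. The summed level was 491 CPM in the 21 sham nuclei and 302 in the 240 stroke nuclei, a ratio of 0.615 (0.483 to 0.795). Of the 8 loci, 7 had a ratio below 1 (47.7% of 15831 genes did), 5 were at 1/1.5 or less (22.6% of genes) and none was at 1.5 or more (20.2% of genes). The count of 5 ran from 0 to 6 under 18 alternatives and moved in 8 of them. The 3 receptors P2ry12 at 0.553 (0.343 to 0.948), P2ry13 at 0.375 (0.172 to 0.970) and Gpr34 at 0.272 (0.115 to 0.784) had intervals below 1. The share of all genes with such an interval was not counted, and the intervals take fragments as independent. In sham, 1 nucleus gave 6 of the 18 fragments at P2ry12, 1 gave 3 of 7 at P2ry13 and 1 gave 2 of 6 at Gpr34. Among nuclei under 8000 fragments the P2ry12 and P2ry13 ratios were above 1, at 1.20 and 1.10, but from only 6 and 2 sham fragments. Tmem119 at 0.604 (0.267 to 1.69), Siglech at 0.630 (0.279 to 1.76), Sall1 at 0.713 (0.400 to 1.40) and Cx3cr1 at 0.799 (0.449 to 1.57) had intervals that included 1, as did Olfml3 at 1.10 (0.364 to 5.45). The median of all genes was 1.04, or 0.893 with genes at 0 in sham set to the ratio at 3 fragments. The gate genes, on which nuclei of both libraries were taken at the same cut, were at 898 CPM in sham and 881 in stroke, a likeness that the gate itself favours.

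This direction rests on 70 sham fragments and on the gate. With a gate on each nucleus alone, which asked for 4 or more of the 6 gate genes to hold more fragments than the depth of the nucleus predicts, 14 sham and 103 stroke nuclei were taken and the summed ratio was 1.61 (1.20 to 2.21). All 8 ratios were then above 1, from 1.02 for Olfml3 to 3.51 for Gpr34, and 6 were at 1.5 or more. The shares of all genes past these ratios were not counted with that gate, so these counts cannot be set against them. That gate shared 2 sham and 84 stroke nuclei with the neighbour gate. The 12 sham nuclei it alone took were deep (a median of 16637 fragments), had a median neighbour score of 1.27, below the cut, and held the loci at 207 CPM (150 to 278). The 19 stroke nuclei it alone took held them at 186 CPM (144 to 235). Nuclei in both gates held 579 CPM in sham (188 to 1351, 2 nuclei) and 401 in stroke (369 to 435, 84 nuclei). Sham was thus not below stroke in either group, and the part of their mix in the ratio of 1.61 was not tested. Of the other alternatives, none turned the summed direction, with values between 0.587 and 0.820.

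The summed level was higher in shallow than in deep myeloid nuclei, with intervals apart in stroke and overlapping in sham. Myeloid nuclei under 8000 fragments held the summed loci at 622 CPM in sham (431 to 870, 15 nuclei) and 505 in stroke (421 to 601, 70 nuclei), a ratio of 0.812 (0.552 to 1.22). Nuclei of 8000 fragments or more held them at 410 in sham (287 to 567, 6 nuclei) and 287 in stroke (269 to 306, 170 nuclei), a ratio of 0.701 (0.503 to 1.01). The sham interval overlapped the stroke interval in both ranges of depth, by a narrow margin in the deeper nuclei. Among nuclei with a gate score of 2 to 3 the level was 290 in sham (172 to 459) and 191 in stroke (172 to 212), and at 3 or more it was 646 (482 to 847) and 436 (405 to 470). The nuclei just below the gate, at 1.5 to 2, that passed no other gate held 205 in sham (148 to 277, 11 nuclei) and 133 in stroke (112 to 155, 59 nuclei). Scaled to fragments near start sites, of which sham myeloid nuclei held a larger share, the ratio was 0.820 (0.643 to 1.06).

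In single nuclei, 17 of 21 sham myeloid nuclei (81.0%, 58.1% to 94.6%) and 203 of 240 stroke ones (84.6%, 79.4% to 88.9%) had a fragment at 1 or more of the 8 loci. In classes that should lack the products the share was 37.5% and 42.3% in glutamatergic neurons (median depths of 12474 and 12583 fragments) and 33.2% and 32.5% in GABAergic neurons (10151 and 8646). With 3 or more loci, the share was 33.3% of sham (14.6% to 57.0%) and 54.2% of stroke myeloid nuclei (47.6% to 60.6%), against at most 1.56% in either neuron class. Astrocyte-gated nuclei, in which Sall1 is open, lay between these classes, with 53.6% in sham and 58.8% in stroke at any locus (median depths of 7545 and 8116 fragments) and 2.08% and 4.63% at 3 or more. Thinned to 3000 fragments a nucleus, which left out 5 sham and 35 stroke myeloid nuclei, 13 of 16 sham nuclei (81.3%, 54.4% to 96.0%) and 102 of 205 stroke nuclei (49.8%, 42.7% to 56.8%) had a fragment at any locus, against 13.4% and 14.2% in glutamatergic neurons and 25.9% and 27.4% in astrocyte-gated nuclei. The order of the libraries in the share with 3 or more loci turned at equal depth, with 12.5% of sham (1.55% to 38.3%) and 6.83% of stroke nuclei (3.78% to 11.2%), and these intervals overlapped.

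The loci differed in how many nuclei carried them. In stroke, P2ry12 was found in 129 of 240 myeloid nuclei (53.8%), Sall1 in 121 (50.4%) and Cx3cr1 in 119 (49.6%). Siglech was found in 64, Tmem119 and Olfml3 in 58 each, P2ry13 in 54 and Gpr34 in 35. In sham, P2ry12 was found in 10 of 21 nuclei, Sall1 in 9, Cx3cr1 in 7, P2ry13 and Gpr34 in 5 each, Tmem119 and Siglech in 4 each and Olfml3 in 3. Window length differs between the loci and depth between the nuclei, and their part in these shares was not tested. The 20 fragments at P2ry12 in a single stroke nucleus, of 250 in all, and the 6 of 18 in a single sham nucleus were the most that any myeloid nucleus gave to a locus.

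**Figure D3:**
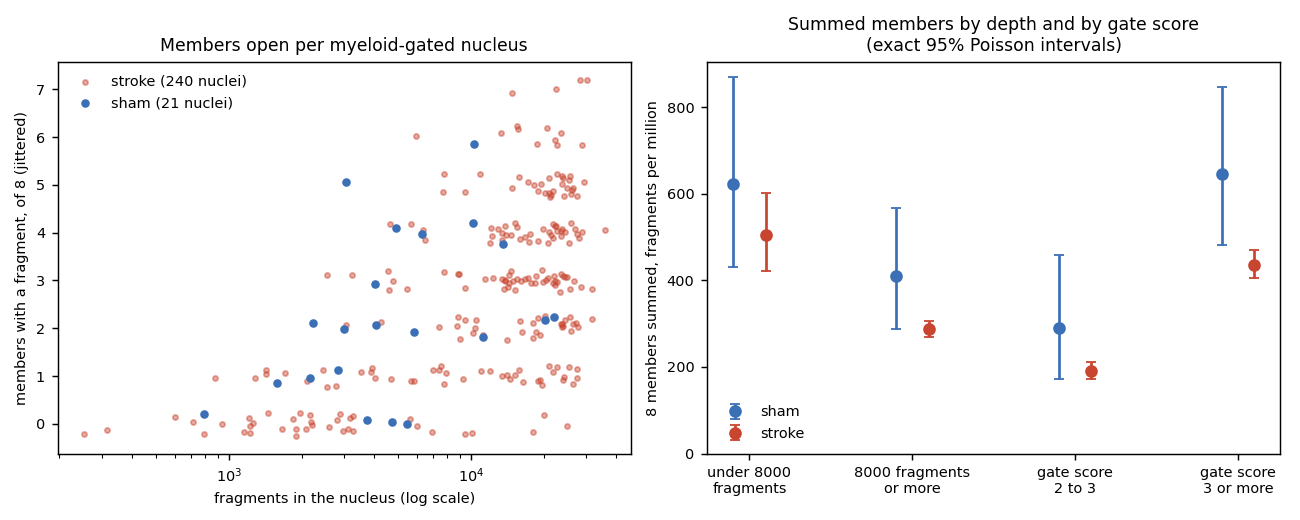
Left, the number of the 8 loci with a fragment (vertical axis, points jittered) against fragments in the nucleus (log axis) for the 21 sham (blue) and 240 stroke (red) myeloid-gated nuclei. Right, CPM summed over the 8 loci with exact 95% Poisson intervals, by depth and by gate score, where sham is above stroke in all 4 bands (622 against 505, 410 against 287, 290 against 191 and 646 against 436).

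Within each locus, myeloid cut sites gathered at a few places. The highest 300-base window of Cx3cr1 lay at the start site of the gene, with 16.1 cut sites per 1000000 fragments (12.3 to 20.7) against 0.327 in other nuclei, 59 of the 60 being from stroke nuclei, which held most myeloid fragments. That of Siglech also lay at the start site, with 12.4 (9.05 to 16.5) against 0.237. At P2ry12 and Gpr34 the highest windows were intronic, and the start site itself carried fewer cut sites. In the promoter zone, from 2 kb upstream to 500 bases downstream, the ratio of myeloid over other nuclei was 19.1 for Siglech (14.3 to 25.3), 17.7 for Cx3cr1 (13.9 to 22.5), 13.4 for P2ry13 (10.4 to 17.2), 7.74 for Gpr34 (4.94 to 11.8), 6.11 for P2ry12 (4.41 to 8.31), 5.00 for Tmem119 (3.69 to 6.65), 4.12 for Sall1 (3.26 to 5.15) and 1.89 for Olfml3 (1.52 to 2.31). These ratios are over all other nuclei together, and in stroke the Tmem119 promoter zone was higher in the mural and leptomeningeal class, as given above. The rest of the P2ry13 gene, shared with Med12l, had a ratio of 2.03 (1.51 to 2.67), and the rest of Tmem119 had 8.41 (6.92 to 10.2).

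The promoter zones differed between libraries in part. Cx3cr1 gave 11.2 myeloid cut sites per 1000000 fragments per kb in sham (3.06 to 28.7, 4 cut sites) and 11.8 in stroke (9.69 to 14.3, 106 cut sites). Gpr34 gave 22.4 in sham (9.69 to 44.2, 8 cut sites) and 2.23 in stroke (1.36 to 3.45, 20 cut sites), and P2ry13 gave 28.1 (13.5 to 51.6, 10 cut sites) and 8.93 (7.08 to 11.1, 80 cut sites). Both ends of a fragment count as cut sites, so intervals on cut sites are narrower than the number of fragments allows. Counted by fragments, P2ry13 had 35.1 CPM in the sham promoter zone (11.4 to 81.9, 5 fragments) and 11.5 in stroke (8.22 to 15.5, 41 fragments), and these intervals overlapped. Gpr34 had 28.1 in sham (7.65 to 71.9, 4 fragments) and 2.79 in stroke (1.34 to 5.14, 10 fragments), with the sham interval above the stroke interval. Olfml3 had no cut site in the sham myeloid promoter zone, where 3 would be 8.42 per 1000000 fragments per kb, and 11.1 in stroke (8.99 to 13.5, 99 cut sites).

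Within 20 kb outside the counted windows of Tmem119, Siglech, Cx3cr1, Olfml3 and P2ry13, a place was cut more often in myeloid nuclei than any place inside. For P2ry13 that place lay in P2ry12, with 9.94 cut sites per 1000000 fragments (6.997 to 13.7) against 1.81 in other nuclei. The window 16538 bases past the Tmem119 start site, downstream of the gene, had 29.5 cut sites per 1000000 fragments (24.3 to 35.6, 110 cut sites) against 1.26 in other nuclei, and the nearest start site was that of Iscu. The window 16549 bases past the Siglech start site had 21.2 (16.8 to 26.4) against 0.449, with Tubgcp5 as the nearest start site. The window 30674 bases past the Cx3cr1 start site had 19.9 (15.6 to 24.95) against 1.31, nearest to Xirp1, and that 3068 bases past the Olfml3 start site had 15.8 (12.1 to 20.4) against 1.78. The Sall1 intron window printed above was also open in astrocyte-gated nuclei, with 25.3 cut sites per 1000000 fragments (21.8 to 29.2). The mural and leptomeningeal class held 28.9 there (17.6 to 44.6). Both intervals overlapped that of myeloid nuclei, which stood at 20.7 (16.3 to 25.8).

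**Figure D4:**
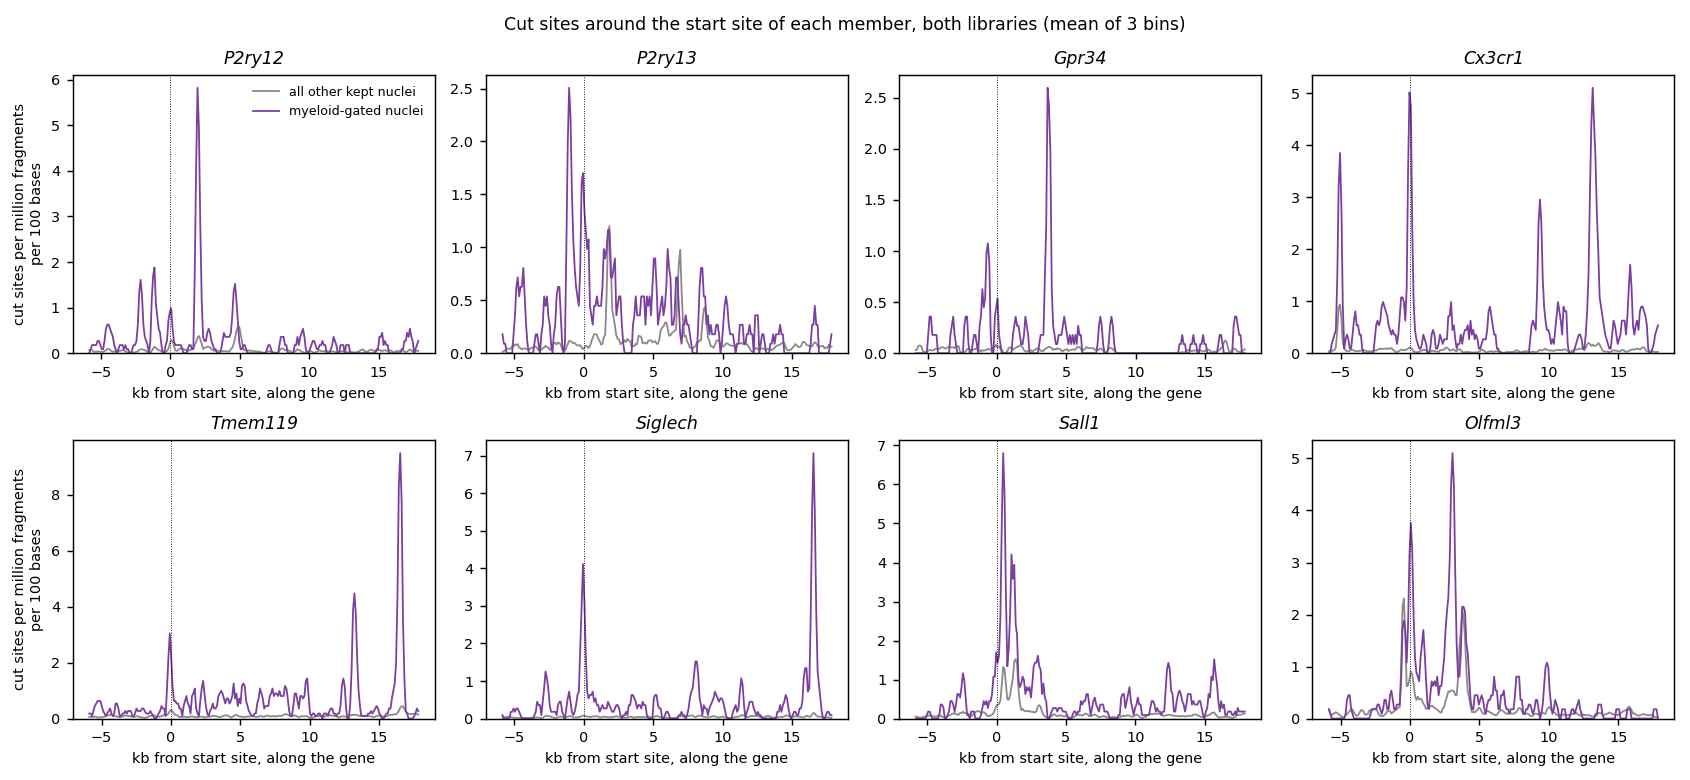
Cut sites per 1000000 fragments per 100 bases (vertical axis, running mean of 3 bins) by distance from the start site in kb along the gene (horizontal axis), both libraries pooled, for myeloid-gated (purple) and all other kept nuclei (grey). Myeloid peaks stand at the start sites of Cx3cr1 and Siglech, in introns of P2ry12 and Gpr34, and 16538 and 16549 bases past the start sites of Tmem119 and Siglech.

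Other genes of the homeostatic set, on a list of 24, were read in the same nuclei. Of these, 20 were in stroke myeloid nuclei at 2 times or more the level of all other kept nuclei of both libraries, as were 11.8% of 20407 genes. Their summed level was 2336 CPM in sham myeloid nuclei (2092 to 2601) and 1794 in stroke (1750 to 1838), a ratio of 0.768 (0.688 to 0.860). Of the 24, 3 were at 1.5 or more, where 20.2% of all genes were, and 7 at 1/1.5 or less, where 22.6% were. The 3 with the largest ratios in either direction were Sparc, a matricellular glycoprotein, at 0.353 (0.202 to 0.664), C1qc, a complement chain, at 2.43 (0.658 to 20.3, 2 sham fragments), and Crybb1, a crystallin gene of developing microglia, at 0.483 (0.285 to 0.881). The 8 loci and this list had ratios below 1 in sum, and their difference was not tested.

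Lists of other states and cells were read beside them. The 15 genes of activated microglia summed to 323 CPM in sham (236 to 430) and 365 in stroke (345 to 385), a ratio of 1.13 (0.842 to 1.55), with 2 at 1.5 or more (20.2% of all genes), 1 at 1/1.5 or less (22.6% of all genes) and 7 at 0 in sham (11% of all genes). The 7 were set to 3 sham fragments, which put their ratios at 0.703 or less. The count of 2 is therefore a minimum and can miss genes that were higher in stroke. Itgax, an integrin of activated microglia and dendritic cells, was at 2.51 (0.434 to 101), Lpl, lipoprotein lipase, at 2.15 (0.370 to 86.5) and Axl, a receptor for dying cells, at 0.589 (0.312 to 1.254). The monocyte and macrophage list, 12 of 15 with 20 fragments, had a summed ratio of 0.926 (0.663 to 1.33) on 253 CPM in sham and 234 in stroke. Of the 12, 3 were at 0 in sham (11% of all genes), and setting them to 3 sham fragments put their ratios at 0.557 or less. Such bounds can miss genes that were higher in stroke. Other kept nuclei held this list at 160 CPM. Its named genes were Fn1, fibronectin, at 4.50 (0.791 to 179), Plac8 at 0.234 (0.109 to 0.573) and Vcan, the proteoglycan versican, at 0.677 (0.318 to 1.72). For Itgax, Lpl and Fn1 the sham level was a single fragment.

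The border macrophage list had a summed ratio of 1.21 (0.817 to 1.89), on 175 CPM in sham and 213 in stroke. Folr2, a folate receptor, stood at 2.51 (0.434 to 101), Cbr2 at 0.422 (0.170 to 1.35) and Lyve1, a hyaluronan receptor, at 0.425 (0.133 to 2.17). The granulocyte list stood at 63.1 CPM in sham (28.9 to 120) and 78.5 in stroke (69.6 to 88.2), with Csf3r, the receptor for G-CSF, at 1.18 (0.494 to 3.68), Trem1 at 0.776 (0.201 to 6.64) and Cxcr2, a neutrophil chemokine receptor, at 30 fragments in stroke and 0 in sham. The lymphocyte list stood at 274 in sham (195 to 374) and 222 in stroke (207 to 238), with Skap1 at 7.09 (1.26 to 281, 1 sham fragment), Themis at 0.314 (0.189 to 0.555) and Bcl11b, which neurons also express, at 0.846 (0.476 to 1.66). Other kept nuclei held the lymphocyte list at 326 CPM. The part of these cells in the ratios of the 8 loci was not tested.

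Genes whose accessibility over the 8 classes in both libraries was like that of the summed loci were looked for among 7875 genes with at least 100 myeloid fragments. Ctsd, the lysosomal protease cathepsin D, had a Pearson r of 0.92 over 16 class sums. Others were Srgap2 (0.88), Slc29a3 (0.86), LOC108168726 (0.85), Csad (0.85), Phf23 (0.84), Vsir (0.84) and Lamtor1 (0.82). Ctsd held 84.2 CPM in sham myeloid nuclei and 65.9 in stroke. Each of the 8 loci had an r between 0.47 (Sall1) and 0.71 (Siglech) with the sum of the other 7. The 16 points share 2 libraries and differ in depth.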

How the data were processed

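Nuclei of 1 sham and 1 stroke library were measured by scATAC-seq with the 10x Next GEM kit. The authors ran Cell Ranger ATAC 2.1.0 on mm10, as the submitters' processing notes list, and deposited a list of deduplicated fragments and per-barcode counts of fragments, without normalization. The values used here are those counts. Cell calls and fragments in peaks were taken from the deposited per-barcode table, and called barcodes with over 20% of fragments in peaks were kept. No doublet caller was run, since the methods name no such step for scATAC-seq. Nuclei passing more than 1 gate were left out of the gated classes (7 sham and 33 stroke at the myeloid cut) and stayed among all other kept nuclei.

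Fragments were counted over RefSeq GRCm38.p6 gene bodies plus 2 kb upstream. Counts over 367907 bins of 5 kb, without bins within 50 kb of the 8 loci, were turned into components 2 to 30 of a TF-IDF decomposition. Over 15 nuclei, each nucleus and its nearest neighbours from both libraries, a class score was the geometric mean over marker genes of observed over expected fragments, with 1 added. The cut was 2, or 1.25 for neurons. Python 3.11.15, scipy 1.17.1 and scikit-learn 1.9.0 were used. Gate score and ratio intervals were run on simulated data. Raised nuclei were there given neighbours mostly of their own kind, so the neighbour search itself was not tested. Poisson, binomial and conditional ratio intervals are exact at 95%, and fragments of PCR copies were already removed. With 1 library a condition there was no test. Called means a ratio of 1.5 (between libraries) or 2 (between classes) with 20 fragments, and genes at 0 were set to 3 fragments for calls. Named in each list were up to 3 genes with the largest ratio, and 10 genes most like the loci by Pearson r of log2(level + 5), of which 8 are reported here. The loci and lists were chosen with earlier results of these data known. The gate cuts were set from the gate genes. The libraries' scRNA-seq data were not used here.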

Additional observations from a re-analysis of the deposited data

Results flagged for a closer look

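For 6 of the 8 loci and for their sum, the ratio of stroke over sham lay on opposite sides of 1 in myeloid-gated nuclei and in all other kept nuclei. All 6 were below 1 in the first and above 1 in the second, as were 14.6% of 15831 genes. The difference was not tested, since each condition was 1 library, and the other kept nuclei also differed in their mix of classes. In myeloid-gated nuclei the ratios were 0.553 for P2ry12, 0.375 for P2ry13, 0.799 for Cx3cr1, 0.604 for Tmem119, 0.630 for Siglech, 0.713 for Sall1 and 0.615 for the sum. In other kept nuclei they were 1.23, 1.24, 1.2504, 1.20, 1.29, 1.41 and 1.2495 in the same order. Only for P2ry12, P2ry13 and the sum did both intervals exclude 1, and the share of all genes for which both did was not counted. Of the sham myeloid fragments, 1 nucleus gave 6 of 18 at P2ry12 and 1 gave 3 of 7 at P2ry13. Under 8000 fragments the myeloid ratios of P2ry12 and P2ry13 were above 1, at 1.20 and 1.10, from 6 and 2 sham fragments. At 8000 fragments or more Cx3cr1 was at 63.9 CPM in stroke (55.6 to 73.1, 213 fragments) and 45.5 in sham (12.4 to 117, 4 fragments). Its ratio in those nuclei was thus also above 1. The myeloid ratio of Siglech was above 1 with the stricter gate and with the study's limits on fragments in peaks, given below. With the gate on each nucleus alone, the myeloid ratios of all 6 loci and of the sum were above 1, so that the opposite directions were no longer seen.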

How the results depend on the processing

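No paired analysis was possible because sham and stroke were measured in 1 library each. Of 157 alternative values of the main results, 114 stayed within the interval or within 1.5 times the count, 42 moved and 1 turned. Of 499 values of single loci, 443 stayed within the interval, 46 moved out of it and 10 that had passed the fold for a call crossed 1. A further 12 of these values crossed 1 from a ratio nearer 1. The cause of these moves was not tested. The ratio of the shares of myeloid nuclei stayed within its interval under all 13 alternatives (9.92 to 17.1), and 7 or 8 loci were at 2 times or more in both libraries under all 18. The gate on each nucleus alone, the GENCODE M21 windows (in which Cx3cr1 spans far more) and the depth ranges were chosen after seeing the data.

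The summed ratio over all kept nuclei was 1.32 with no filter on percent in peaks (2 loci at 1.5 or more), 1.61 over promoter windows, 1.64 when scaled to fragments near start sites and 1.13 with GENCODE M21. The summed ratio of myeloid over other nuclei was, for sham and stroke, 10.9 and 5.57 with the stricter gate, 5.50 and 3.60 with the looser gate, 3.73 and 4.47 with the gate on each nucleus alone, 2.75 and 2.07 with GENCODE M21 and 10.5 and 6.85 under 8000 fragments. In stroke it was 4.45 with no filter on percent in peaks and 4.39 over promoter windows.

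The summed myeloid ratio of stroke over sham was 0.820 when scaled to fragments near start sites, 0.808 with the looser gate, 0.796 with GENCODE M21 and 0.812 under 8000 fragments, and it turned to 1.61 with the gate on each nucleus alone, which put 0 loci at 1/1.5 or less and 6 at 1.5 or more. Loci at 1/1.5 or less numbered 2 when scaled to start sites and under 8000 fragments, 1 with the looser gate, and 3 with the stricter gate, without Inpp5d, with nuclei of several gates kept and at 8000 fragments or more. Loci at 1.5 or more numbered 1 with no filter on percent in peaks and at 8000 fragments or more. Shares of all genes were not counted under these alternatives. For single loci the myeloid ratio turned to 1.69 for P2ry12, 2.18 for P2ry13, 3.51 for Gpr34, 3.33 for Tmem119 and 2.46 for Siglech with the gate on each nucleus alone. That gate also put Cx3cr1 at 1.79 and Sall1 at 1.05. Under 8000 fragments the ratio turned to 1.20 for P2ry12 and 1.10 for P2ry13, from 6 and 2 sham fragments. For Siglech it turned to 1.08 with the study's limits on fragments in peaks and to 1.01 with the stricter gate. Those limits, over 1000 and under 100000 fragments in peaks, were added to the 20% minimum. The study's criteria on blacklisted regions, nucleosome signal and start site enrichment were not applied. The sham ratio of Olfml3 in myeloid over other nuclei was 0 over its promoter window (0 fragments). With GENCODE M21, Cx3cr1 stood at 1.21 in sham and 1.53 in stroke over other nuclei.

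The share of stroke myeloid nuclei with a fragment at any locus was 96.0% with the study's limits on fragments in peaks, 78.2% with no filter on percent in peaks, 49.8% when thinned and 93.2% with the gate on each nucleus alone (57.1% in sham). With 3 or more loci it was 64.9%, 44.95%, 6.83% and 74.8% in the same order, and 12.5% in thinned sham nuclei. Counts over windows free of other genes gave no value for P2ry12, P2ry13 and Gpr34. The 21 sham myeloid nuclei and their 70 fragments limit the intervals of every comparison of myeloid-gated nuclei between libraries.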

Other observations

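The called barcodes that failed the minimum in peaks also held fragments at the 8 loci. Their summed level was 67.5 CPM in sham (54.3 to 83.0, 162 barcodes) and 64.9 in stroke (62.2 to 67.6, 3686 barcodes), with 4.83% and 3.65% of fragments near start sites. Cx3cr1 stood at 13.5 in sham (18 fragments) and 7.77 in stroke (275 fragments), and Sall1 at 17.2 (10.9 to 25.9) and 10.2 (9.18 to 11.3). Among called barcodes of both libraries, 66 sequences occurred in both. Of the myeloid-gated barcodes, 3 of stroke were kept barcodes of the sham library and 1 of sham was a kept barcode of the stroke library.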
